A study of Homo sapiens with 18 samples.

Results

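FGFR1, FGFR2, FGFR3, FGFR4, FGFRL1 and ERBB3 were described across RNA-seq libraries of UMRC2 cells. They were chosen by name as the FGF receptor family and ERBB3. All 6 had a row among the 1242 genes of the authors' deposited table, which lists genes called different between shFTO#5 and shControl cells. The presence of a row, and with it a difference in that contrast, is therefore what chose the genes, and the shFTO#5 values below are a description with no test.

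UMRC2 is an established human line of clear cell kidney cancer. It is deficient in VHL, the tumour suppressor through which hypoxia-inducible factors are degraded. The groups were cells transfected with the hairpin shFTO#5, cells transfected with the hairpin shFTO#2 and cells transfected with shControl, with 2 libraries each. Both knockdown hairpins target FTO, an RNA demethylase that removes the methyl group of N6-methyladenosine. The series holds 18 samples, and its 12 m6A libraries were not analysed here. All groups are 1 cell line in serum-supplemented medium, and nothing in the labels says that the 2 libraries of a group came from separate cultures.

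FGF receptors 1 to 4 are tyrosine kinases that bind fibroblast growth factors together with heparan sulfate, or with a Klotho protein for the hormone-like members. Their activation docks the adaptor FRS2 and feeds the RAS-MAPK and AKT pathways. FGFRL1 binds the same ligands but has no intracellular kinase domain. ERBB3 binds neuregulins, has little kinase activity of its own and signals as a partner of other ERBB receptors, with docking sites for phosphoinositide 3-kinase. In kidney, FGFR1 and FGFR2 act in branching of the ureteric bud and in the nephron-forming mesenchyme, and the adult tubule uses FGF receptors with Klotho in phosphate handling.

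With shFTO#5, 1 of the 6 genes was higher and 5 were lower than in shControl. Of the 9551 genes the authors tested in this contrast, 13.0% were called, 8.18% as higher and 4.83% as lower. Because the genes were taken from these calls, nothing is read from the 6 against that share. FGFR1 was the gene that was higher, at 1.31-fold the shControl mean. ERBB3 and FGFR2 were furthest below shControl, at 56.6% and 49.3% of the shControl mean, and FGFR4 differed least, at 87.4%.

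FTO itself, the target of the hairpins, measured 0.555 and 0.526 FPKM with shFTO#5, 0.882 and 0.720 FPKM with shFTO#2, and 1.99 and 2.37 FPKM in shControl. FPKM is a read count scaled by gene length and by the library's total. The knockdown groups held 24.8% and 36.7% of the shControl mean, in the order shFTO#5 and shFTO#2. Library totals were 14548533 to 18184675 reads. Of the 14 renal and clear cell carcinoma markers, 6 had a row, 4 higher and 2 lower with shFTO#5. That is 42.9%, beside 13.0% called of all genes tested, and was not tested. KRT18, CA9, KRT8 and PAX8 were higher, and LRP2 and PAX2 were lower. PAX8 measured 88.6 ± 2.38 FPKM with shFTO#5 and 77.9 ± 2.10 FPKM in shControl (SD, n = 2). PAX2 measured 5.03 ± 0.110 FPKM with shFTO#5 and 7.70 ± 0.139 FPKM in shControl (SD, n = 2). None of the 8 fibroblast, 6 immune and 4 endothelial markers had a row, which says nothing on their level, since the table lists called genes only.

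The 6 genes lie on 5 chromosomes, FGFRL1 and FGFR3 together on chromosome 4. Promoter windows from 250 bases before to 50 bases after a start are shown for FGFR2, FGFR3 and FGFR4, the FGF receptors with a kinase domain that were lower with shFTO#5; FGFR1 and ERBB3 are not shown. The sequences are RefSeq's on GRCh38.p14, written 5′ to 3′ on the gene's strand. Capitals mark the GC box GGGCGG on either strand.
FGFR2 (chr10:121598395-121598694, minus strand): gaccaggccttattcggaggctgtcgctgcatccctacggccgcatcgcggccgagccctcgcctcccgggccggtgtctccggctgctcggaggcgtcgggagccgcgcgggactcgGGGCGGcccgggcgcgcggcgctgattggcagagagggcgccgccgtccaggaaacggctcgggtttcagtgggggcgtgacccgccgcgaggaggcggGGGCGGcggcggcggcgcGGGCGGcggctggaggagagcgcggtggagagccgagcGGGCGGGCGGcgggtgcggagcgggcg
FGFR3 (chr4:1793043-1793342, plus strand): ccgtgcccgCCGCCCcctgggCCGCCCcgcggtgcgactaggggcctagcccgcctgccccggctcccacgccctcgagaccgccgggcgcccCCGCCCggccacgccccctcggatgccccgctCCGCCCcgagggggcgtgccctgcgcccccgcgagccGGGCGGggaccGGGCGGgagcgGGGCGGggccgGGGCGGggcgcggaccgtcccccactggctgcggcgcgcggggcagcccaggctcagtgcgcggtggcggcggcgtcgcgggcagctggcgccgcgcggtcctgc
FGFR4 (chr5:177086665-177086964, plus strand): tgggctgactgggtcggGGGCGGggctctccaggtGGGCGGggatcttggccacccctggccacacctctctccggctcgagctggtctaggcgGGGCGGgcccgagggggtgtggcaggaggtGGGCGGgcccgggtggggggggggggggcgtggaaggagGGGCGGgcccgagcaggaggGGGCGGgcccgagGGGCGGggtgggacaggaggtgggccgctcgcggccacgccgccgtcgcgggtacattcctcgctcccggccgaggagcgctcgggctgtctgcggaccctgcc

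The GC content was 79.3% in the FGFR2 window, 86.3% in the FGFR3 window and 78.7% in the FGFR4 window, against a median of 58.7% over 35116 windows of the same length. GC boxes numbered 5 in FGFR2, 8 in FGFR3 and 7 in FGFR4, and 45.0% of all windows held at least 1. For FGFR2, with 5 windows in RefSeq's table, and FGFR4, with 2, the window nearest to the annotated gene start is shown. The FGFRL1 window lies 2528 bases inside the annotated gene and had 68.3% GC with 4 GC boxes. It also held the E-box CACGTG, present in 7.26% of windows, which contains the hypoxia core ACGTG on both strands; 21.4% of windows held that core. The AP-1 site TGANTCA, the forkhead site TGTTTAC and TATAAA were searched on both strands as well, without a match in these 4 windows. They occurred in 7.71%, 3.42% and 11.5% of all windows. A match describes letters only and does not show that a factor binds there.

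FGFR1 (ENSG00000077782), the receptor for FGF2 and many other paracrine ligands, lies on chromosome 8 from 38400215 to 38468834, minus strand, hg38. It measured 69.9 and 70.1 FPKM with shFTO#5, 61.7 and 61.0 FPKM with shFTO#2, and 52.4 and 54.3 FPKM in shControl. Both knockdown groups were above both shControl libraries, and the shFTO#5 libraries were above the shFTO#2 libraries. The means were 70.0 ± 0.185, 61.3 ± 0.441 and 53.3 ± 1.30 FPKM (SD, n = 2 each) with shFTO#5, with shFTO#2 and in shControl. On the log2(FPKM + 1) scale used for all changes below, the difference from shControl was 0.39 ± 0.04 with shFTO#5 and 0.20 ± 0.03 with shFTO#2 (standard error from limma). With shFTO#2 the size depended on scaling. It was 0.049 after centring on the median of the listed genes and 0.065 after quantile normalization. The authors' deposited table gives log2 changes of 0.42 with an adjusted p of 6.26e-18 for shFTO#5 and 0.21 with an adjusted p of 0.000323 for shFTO#2, turned here to knockdown over control. By size, FGFR1 was number 116 of the 781 genes listed as higher with shFTO#5. It overlaps 4 other annotated genes, LETM2 among them, and none of these had a row.

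FGFR2 (ENSG00000066468), the receptor whose splice forms serve epithelial and mesenchymal ligands, lies on chromosome 10 from 121478334 to 121598458, minus strand. It measured 2.20 and 1.72 FPKM with shFTO#5, 1.75 and 1.75 FPKM with shFTO#2, and 3.90 and 4.04 FPKM in shControl. All 4 knockdown libraries were well below both shControl libraries. These levels rest on few reads: 136 and 123 with shFTO#5, 130 and 116 with shFTO#2, and 302 and 279 in shControl. The exact 95% Poisson intervals were 1.84 to 2.60 and 1.43 to 2.05 FPKM with shFTO#5, against 3.48 to 4.37 and 3.58 to 4.54 FPKM in shControl. They cover counting error only and do not meet between the groups, which comes with the choice of a called gene and is no added support. The means were 1.96 ± 0.337 FPKM with shFTO#5, 1.75 ± 0.00128 FPKM with shFTO#2 and 3.97 ± 0.0938 FPKM in shControl (SD, n = 2 each). The SD with shFTO#2 is far below counting error, whose 95% interval was 1.46 to 2.08 FPKM in shFTO#2 replicate 1. The log2(FPKM + 1) difference was −0.75 ± 0.07 with shFTO#5 and −0.85 ± 0.07 with shFTO#2. The added 1 makes such a low gene's difference smaller, and the log2 of the plain ratio of means was −1.02 with shFTO#5 and −1.18 with shFTO#2. The authors' deposited table gives −0.61 with an adjusted p of 7.23e-05 for shFTO#5 and −0.68 with an adjusted p of 1.82e-06 for shFTO#2. FGFR2 was number 7 by size of the 461 genes listed as lower with shFTO#5.

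FGFR3 (ENSG00000068078), a receptor whose activating mutations are known from urothelial cancer and skeletal dysplasia, lies on chromosome 4 from 1793293 to 1808872, plus strand. It measured 38.9 and 39.8 FPKM with shFTO#5, 42.0 and 43.6 FPKM with shFTO#2, and 53.1 and 58.8 FPKM in shControl. The 4 knockdown libraries lay within a narrow range below shControl, and the shControl libraries were the ones furthest apart from each other. The exact 95% Poisson intervals of those shControl libraries did not meet, at 51.5 to 54.7 and 57.0 to 60.7 FPKM. The means were 39.3 ± 0.679 FPKM with shFTO#5, 42.8 ± 1.13 FPKM with shFTO#2 and 56.0 ± 4.06 FPKM in shControl (SD, n = 2 each). The log2(FPKM + 1) difference was −0.50 ± 0.05 with shFTO#5 and −0.38 ± 0.05 with shFTO#2. FGFR3 thus stood at 70.3% of shControl with shFTO#5 and at 76.6% with shFTO#2. The authors' deposited table gives −0.44 with an adjusted p of 2.8e-11 for shFTO#5 and −0.34 with an adjusted p of 2.16e-06 for shFTO#2.

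FGFR4 (ENSG00000160867), the receptor for FGF19 with beta-Klotho in liver, lies on chromosome 5 from 177086886 to 177098144, plus strand. It measured 73.3 and 75.1 FPKM with shFTO#5, against 83.5 and 86.3 FPKM in shControl. The groups were separate but close. The means were 74.2 ± 1.26 FPKM with shFTO#5 and 84.9 ± 2.01 FPKM in shControl (SD, n = 2 each), a log2(FPKM + 1) difference of −0.19 ± 0.04. Its adjusted p in the authors' deposited table, 0.0299 at a log2 change of −0.15, was nearest among the 6 genes to the table's limit of 0.05. At number 440 by size of 461, FGFR4 was among the smallest differences listed as lower.

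FGFRL1 (ENSG00000127418), the family member without a kinase domain, lies on chromosome 4 from 1009936 to 1026897, plus strand. It measured 39.5 and 42.0 FPKM with shFTO#5, against 48.4 and 51.4 FPKM in shControl. Both shFTO#5 libraries were lower than both shControl libraries. The means were 40.7 ± 1.75 FPKM with shFTO#5 and 49.9 ± 2.17 FPKM in shControl (SD, n = 2 each), a log2(FPKM + 1) difference of −0.29 ± 0.04. The authors' deposited table gives −0.24 with an adjusted p of 0.00203. No shFTO#2 entry gave whole reads in both libraries with the length of FGFR4 or FGFRL1, so none could be placed on them. The shFTO#2 entries are the authors' calls, so these genes may not have been called with that hairpin. Their shFTO#2 level was not analysed here.

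ERBB3 (ENSG00000065361), the neuregulin receptor, lies on chromosome 12 from 56076799 to 56103505, plus strand. It measured 8.64 and 8.70 FPKM with shFTO#5, 10.6 and 10.5 FPKM with shFTO#2, and 15.2 and 15.4 FPKM in shControl. The 3 groups were each tight and fully apart, with shFTO#5 the lowest. The libraries of a group lay closer together than counting error alone would place them. In shFTO#5 replicate 1 the exact 95% Poisson interval was 8.03 to 9.28 FPKM. The small SDs below, from 2 libraries each, therefore do not measure how well the level would repeat. The means were 8.67 ± 0.0392 FPKM with shFTO#5, 10.5 ± 0.0423 FPKM with shFTO#2 and 15.3 ± 0.0793 FPKM in shControl (SD, n = 2 each). The log2(FPKM + 1) difference was −0.75 ± 0.06 with shFTO#5 and −0.50 ± 0.04 with shFTO#2. The authors' deposited table gives −0.71 with an adjusted p of 1.55e-16 for shFTO#5 and −0.46 with an adjusted p of 1.54e-07 for shFTO#2. ERBB3 was number 6 by size of the 461 genes listed as lower with shFTO#5 and number 39 of the 208 placed for shFTO#2. The annotated gene AC034102.2 overlaps it and had no row.

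**Figure D1:**
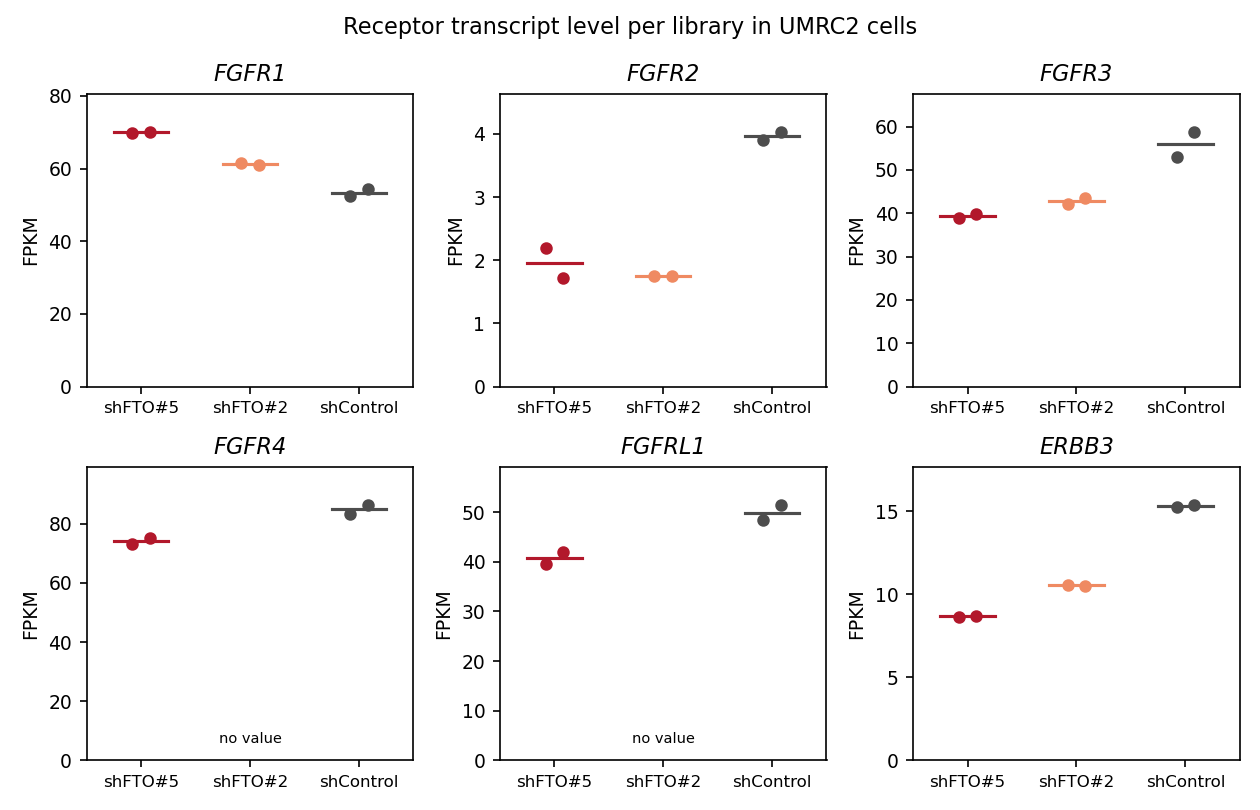
FPKM of each receptor gene (vertical axis, starting at 0, each panel on its own scale) in the shFTO#5, shFTO#2 and shControl libraries; points are libraries and bars are means of 2. FGFR1 lies above shControl in both knockdown groups, and the other genes with a value lie below it; FGFR4 and FGFRL1 have no placed shFTO#2 value.

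The shFTO#2 libraries show the same 4 genes that could be placed on the same side of shControl as shFTO#5, 1 higher and 3 lower. This is no independent support, since both comparisons use the same 2 shControl libraries and the shFTO#2 entries are the authors' calls. Among the 10038 genes the authors tested for shFTO#2, 7.63% were called, 4.17% as higher and 3.46% as lower. FGFR1, FGFR3 and ERBB3 were further from shControl with shFTO#5 than with shFTO#2, and FGFR2 was not; the difference between the hairpins was not tested. An exact permutation test of 2 libraries against 2 cannot give a two-sided p below 0.333. The limma fit gives standard errors, but no p is read from it for genes chosen on these calls. Lower RNA in a whole culture can come from fewer cells that make it or from less RNA per cell, which cannot be told apart here.

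**Figure D2:**
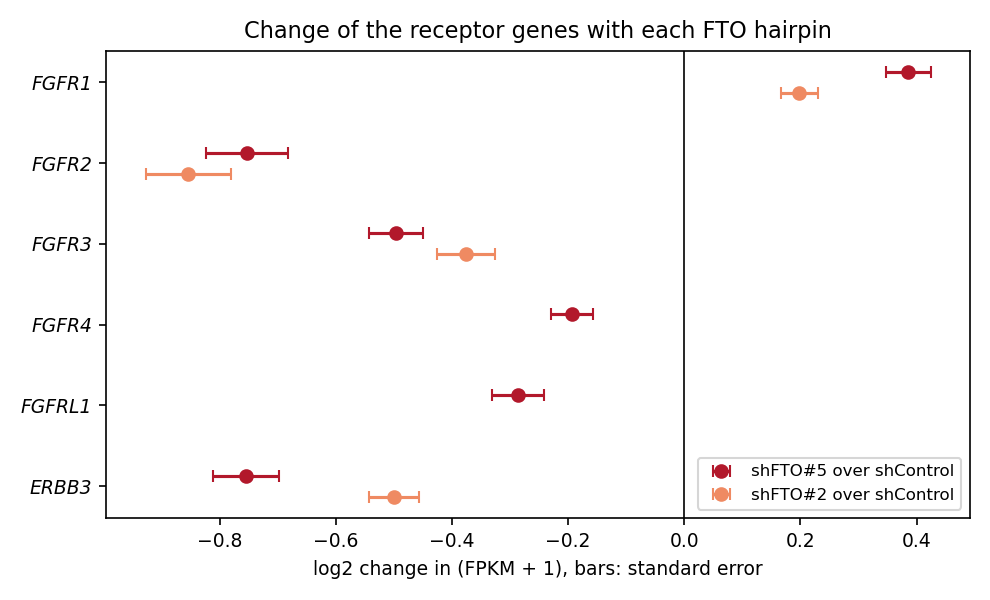
Difference in log2(FPKM + 1) from shControl (horizontal axis) for each receptor gene with shFTO#5 and shFTO#2; points are differences of means and bars are standard errors from limma. FGFR1 is the gene to the right of 0, at 0.39 with shFTO#5, and FGFR2 and ERBB3 are furthest to the left, both at −0.75 with shFTO#5.

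Per length, FGFR4 was the most abundant of the 6 transcripts in shControl, and FGFR2 the least abundant. FGFR3 and FGFR1 followed FGFR4 and did not differ beyond their spread in shControl, since their library ranges overlap. FGFRL1, ERBB3 and FGFR2 came next, each apart from its neighbour. With shFTO#5 the order was FGFR4, FGFR1, FGFRL1, FGFR3, ERBB3 and FGFR2, and the ranges of FGFRL1 and FGFR3 overlapped. With shFTO#2, where 4 genes have values, FGFR1 was above FGFR3, followed by ERBB3 and FGFR2. Among the 1242 listed genes, levels in shControl ran from number 305 for FGFR4 to number 1192 for FGFR2.

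The makeup of the kinase-bearing FGF receptors differed more than their sum. The summed FPKM of FGFR1 to FGFR4 was 184 and 187 with shFTO#5, against 193 and 203 in shControl. FGFR1 made up 37.9% and 37.6% of that sum with shFTO#5, against 27.2% and 26.7% in shControl. FGFR3 made up 21.1% and 21.3% with shFTO#5, against 27.5% and 28.9% in shControl. FGFR1 thus held a larger share of the sum, and FGFR3 a smaller one, in both shFTO#5 libraries than in either shControl library. Of these receptors FGFR1 was called higher and the others lower in the same libraries. The shift in makeup thus comes with the choice of the genes and is no added support. FGFR4 was the most abundant in both groups, at 39.8% and 40.2% with shFTO#5 and 43.3% and 42.4% in shControl. FGFR2 was the smallest share, at 1.19% and 0.921% with shFTO#5 and 2.02% and 1.98% in shControl.

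**Figure D3:**
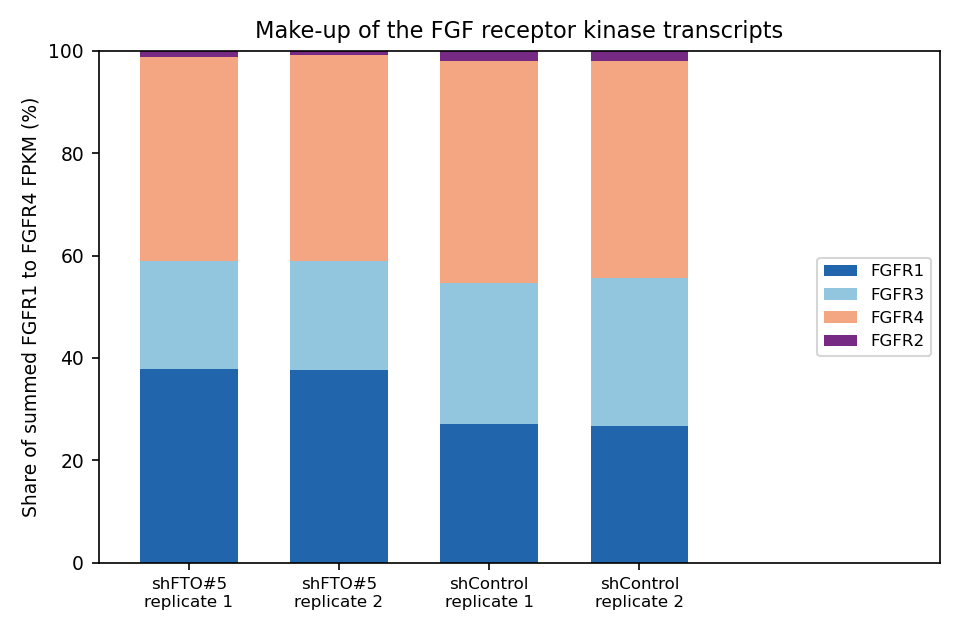
Share of each receptor in the summed FPKM of FGFR1 to FGFR4 (vertical axis, percent) in each shFTO#5 and shControl library; stacked segments are the receptors. The FGFR1 segment is 37.9% and 37.6% with shFTO#5, against 27.2% and 26.7% in shControl, a difference that comes with the calls that chose the genes.

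Ratios between receptors within a library do not change when a library is multiplied by 1 factor, although quantile normalization can change them. FGFR1 over FGFR3 was 1.80 and 1.76 with shFTO#5, 1.47 and 1.40 with shFTO#2, and 0.988 and 0.923 in shControl. FGFR1 over ERBB3 was 8.09 and 8.07 with shFTO#5, 5.84 and 5.81 with shFTO#2, and 3.44 and 3.53 in shControl. In both ratios the 3 groups were fully apart, in the order shFTO#5, shFTO#2 and shControl. FGFR1 was called higher and FGFR3 and ERBB3 lower in these same libraries. Separation of the knockdown groups from shControl thus comes with that choice and is no added support. FGFR3 over ERBB3 was 4.50 and 4.58 with shFTO#5, 3.98 and 4.15 with shFTO#2, and 3.48 and 3.83 in shControl. The groups did not overlap in FGFR3 over ERBB3 either, but lay closer together.

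Among all listed genes, 781 were higher and 461 lower with shFTO#5, with a median log2(FPKM + 1) difference of 0.15. The 6 receptor genes had a median of −0.39. For the 561 genes with a placed shFTO#2 value the median was 0.17, and for the 4 receptor genes among them it was −0.44. The receptor genes were picked by name with earlier results of these data known, so the contrast with the other listed genes is a description.

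**Figure D4:**
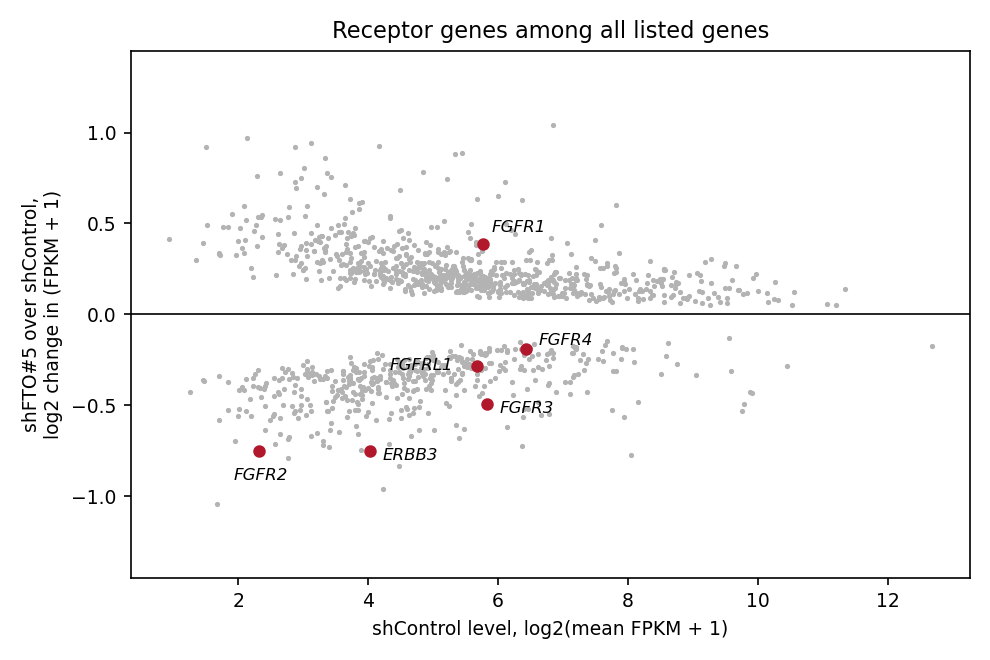
Difference in log2(FPKM + 1) between shFTO#5 and shControl (vertical axis) against the shControl level (horizontal axis, log2(mean FPKM + 1)) for the listed genes in grey, with the receptor genes in red; ALDH2 and TUFM lie beyond the vertical axis. FGFR1 lies among the higher genes, FGFR2 and ERBB3 near the lower edge of the cloud, and FGFR4 near the gap around 0 that a table of called genes leaves.

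The genes whose pattern over the 4 shFTO#5 and shControl libraries was most like each receptor were taken by Euclidean distance of log2(FPKM + 1) deviations. With 4 libraries in 2 groups this distance mostly reads the size of the difference. For FGFR1 they were RPL38, CLDN2 and ERLIN1, at distances of 0.02 to 0.03. For FGFR2 they were METTL7A, GABARAPL1 and DNAJC22, at 0.07 to 0.13, the widest of the 6. TRPM4, SUV420H2 and C1QL1 were nearest to FGFR3, at 0.02 to 0.05. NSMF and LZTS2 were among the nearest to FGFR4, and GSN and RAB11B among the nearest to FGFRL1, all at 0.02. JUND, RGL1 and MSC were nearest to ERBB3, at 0.05 to 0.06.

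FGFRL1 and FGFR3 lie 0.766 Mb apart. Within 1 Mb of FGFR3, 31 other protein-coding genes are annotated and 8 genes had a row, FGFRL1 among them, 4 higher and 4 lower with shFTO#5. That is 25.8%, beside 13.0% called of all genes tested, and was not tested. The shares are not alike, since how many of the 31 the authors tested is not known here. FGFRL1 was also itself chosen for its row. The lower ones included TMEM129 at a log2(FPKM + 1) difference of −0.44 and MXD4 at −0.46, and the higher ones TACC3 at 0.22 and SLBP at 0.18. FGFR1 and FGFR2 each had 1 listed gene within 1 Mb, EIF4EBP1 at 0.13 and PLEKHA1 at 0.28, both higher, among 25 and 10 protein-coding neighbours. FGFRL1 had 6 listed genes among 32, 3 higher and 3 lower, which are FGFR3 itself and genes already counted near FGFR3. FGFR4 had 3 among 40, 1 higher and 2 lower, and ERBB3 had 5 among 77, 4 higher and 1 lower.

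The wider pathway was read from lists that hold 246 genes in all, of which 28 had a row, 16 higher and 12 lower with shFTO#5. That is 11.4% of the lists, beside 13.0% called of all genes tested, and how many of the 246 were tested is not known here. The share of the lists is thus near the background. Their median log2(FPKM + 1) difference was 0.27, beside 0.15 for all listed genes. In shFTO#2, 19 of the 28 had a placed value, 12 higher and 7 lower. That is 7.72% of the lists. Of all genes tested for shFTO#2 7.63% were called, an unlike measure that counts calls whether placed or not. A value could be placed only on a gene with a row, and 45.2% of all listed genes had one. The partners EGFR, ERBB2 and ERBB4 and the 22 FGF ligands had no row and were not analysed here.

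Among 11 ERBB ligands TGFA, a ligand of EGFR, had a row. That is 9.09%, beside 13.0% called of all genes tested and 8.18% called as higher. TGFA measured 22.0 and 22.0 FPKM with shFTO#5, 21.9 and 22.0 FPKM with shFTO#2, and 13.5 and 14.5 FPKM in shControl. Both knockdown groups were above shControl, with log2(FPKM + 1) differences of 0.62 ± 0.05 and 0.61 ± 0.05 for shFTO#5 and shFTO#2.

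Among 43 other receptor tyrosine kinases 4 had a row, 9.30% against 13.0% of all genes tested, 3 of them higher and 1 lower with shFTO#5. EPHA2, a receptor for membrane-bound ephrins, measured 45.2 ± 1.56 FPKM with shFTO#5, 42.6 ± 1.47 FPKM with shFTO#2 and 32.2 ± 0.850 FPKM in shControl (SD, n = 2 each). The GAS6 receptor AXL measured 62.8 ± 1.22 FPKM with shFTO#5 and 51.3 ± 1.41 FPKM in shControl (SD, n = 2 each). MET, the hepatocyte growth factor receptor, measured 72.2 ± 1.60 FPKM with shFTO#5, 65.7 ± 0.0819 FPKM with shFTO#2 and 60.2 ± 1.24 FPKM in shControl (SD, n = 2 each). These 3 stood on the same side of shControl as FGFR1. The ephrin-B2 receptor EPHB4 was on the other side, at 26.3 ± 0.873 FPKM with shFTO#5 and 30.8 ± 1.06 FPKM in shControl (SD, n = 2 each).

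Of 38 FGF co-receptors, binding proteins and heparan sulfate genes 4 had a row, 10.5% beside 13.0% called of all genes tested. The 4 were lower with shFTO#5, beside 4.83% called as lower of all genes tested. How many of the 38 were tested is not known here, and the shares were not tested. SDC2, a cell-surface heparan sulfate proteoglycan, measured 10.9 and 11.9 FPKM with shFTO#5, 10.3 and 10.8 FPKM with shFTO#2, and 21.9 and 20.3 FPKM in shControl. Both knockdown groups were below both shControl libraries, with log2(FPKM + 1) differences of −0.83 ± 0.06 with shFTO#5 and −0.94 ± 0.06 with shFTO#2. HSPG2, which encodes the basement membrane proteoglycan perlecan, differed by −0.40 with shFTO#5 and −0.43 with shFTO#2. SULF2, which trims sulfate groups from heparan sulfate outside the cell, differed by −0.29 with shFTO#5 and −0.31 with shFTO#2. AGRN, which encodes the heparan sulfate proteoglycan agrin, differed by −0.20 with shFTO#5.

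The adaptor, feedback, RAS-MAPK and AKT lists each had a smaller share of genes with a row than the 13.0% of all genes tested. Of 26 receptor adaptors and proximal effectors 2 had a row (7.69%), both lower with shFTO#5, beside 4.83% called as lower of all genes tested. SOS2, a RAS exchange factor, differed by −0.42 and GRB7, an adaptor of ERBB receptors, by −0.41 on the log2(FPKM + 1) scale. Of 33 turnover and feedback genes 3 had a row (9.09%), and these were higher, beside 8.18% called as higher of all genes tested. DUSP5 and DUSP1, phosphatases of MAP kinases, differed by 0.53 and 0.34, and ERRFI1, an inhibitor of the EGFR kinase, by 0.40 with shFTO#5 and 0.29 with shFTO#2. Of 23 RAS-MAPK core genes the scaffold KSR1 had a row (4.35%), at 0.16. In the AKT branch 2 of 22 had a row (9.09%), both lower, beside the same 4.83% called as lower. PHLPP1, a phosphatase of AKT, differed by −0.51 with shFTO#5 and −0.41 with shFTO#2, and IRS2, an adaptor of the insulin receptor, by −0.38 and −0.45.

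Of 31 genes known to respond to MAPK signalling 13 had a row, 10 higher and 3 lower with shFTO#5. That is 41.9% of the list, against 13.0% of all genes tested, 8.18% as higher and 4.83% as lower. A placed shFTO#2 value was found for 11 of these 13, 9 higher and 2 lower, beside 561 of all 1242 listed genes (45.2%). The 11 are 35.5% of the list, and 7.63% of all genes tested for shFTO#2 were called. Those 2 shares are unlike measures, since a value could be placed only on a gene with a row. The list was written with earlier results of these data known, and these shares were not tested. EPHA2 and DUSP5 stand in this list and in another. FOSL1, an AP-1 subunit, measured 236 ± 6.19 FPKM with shFTO#5, 203 ± 3.03 FPKM with shFTO#2 and 114 ± 5.85 FPKM in shControl (SD, n = 2 each). PLAUR, the urokinase receptor, IER3, an early response gene, and HMGA2, a chromatin protein, were higher by 0.73, 0.68 and 0.55 on the log2(FPKM + 1) scale with shFTO#5. The list was not uniform. DUSP6, SPRY2, SPRY4, ETV4, ETV5, FOS and MYC were among its genes without a row, which says nothing on their level. JUND, another AP-1 subunit, measured 153 ± 3.06 FPKM with shFTO#5, 169 ± 18.7 FPKM with shFTO#2 and 263 ± 8.70 FPKM in shControl (SD, n = 2 each). EGR1, an immediate early transcription factor, differed by −0.57 with both hairpins.

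**Figure D5:**
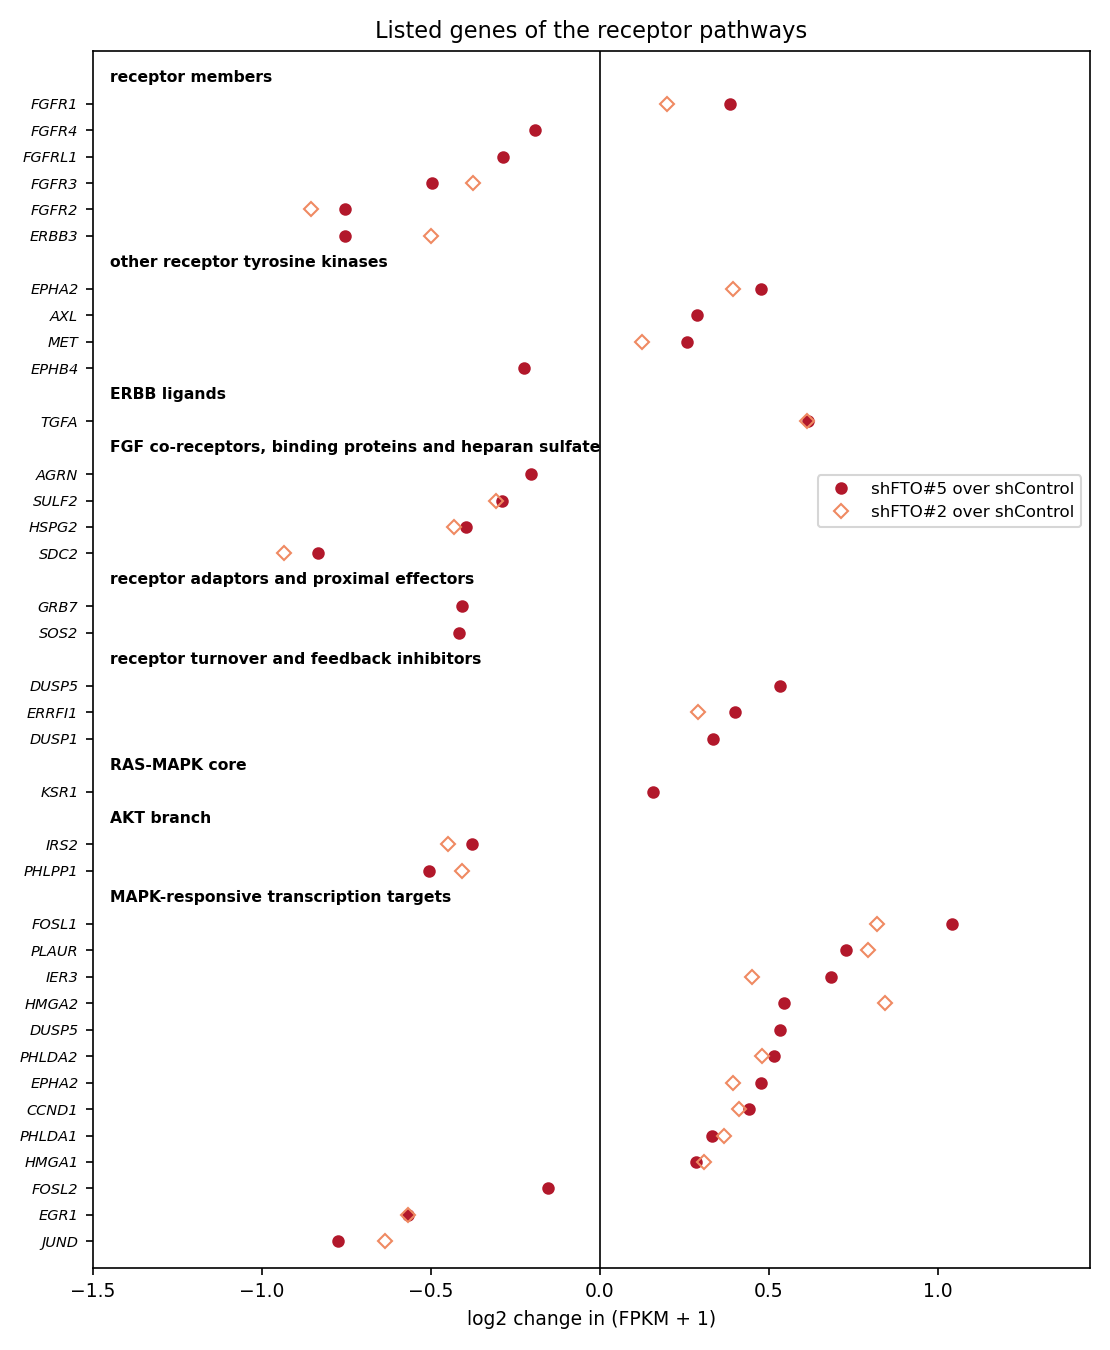
Difference in log2(FPKM + 1) from shControl (horizontal axis) for each receptor and pathway gene with a row, by list; filled circles are shFTO#5 and open diamonds are shFTO#2 where an entry could be placed. Of the 28 pathway genes, 16 lie right of 0 and 12 left of it with shFTO#5; EPHA2 and DUSP5 are drawn in 2 lists each.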

How the data were processed

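The authors deposited FPKM values for genes called at an adjusted p under 0.05, together with the gene length, log2 fold changes and raw and adjusted p-values of their own test, per the file headers. Trim Galore 0.4.2, STAR, RSEM and hg38 stand in the submitters' processing notes, with no role given. Which tool made the differential calls, which annotation was counted and whether strand was used: not given in the sources used here. The deposited log2 sign was control over knockdown in all 1242 genes and was turned round. The numbers of genes tested were worked out from how adjusted p relates to raw p under the Benjamini-Hochberg method.

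FPKM times length gave whole reads in every shFTO#5 and shControl value within 1e-05, and with them the library totals; the least covered gene had 81 reads. The shFTO#2 columns are out of row order. Their 766 entries were placed on a gene only where both libraries gave whole reads with its length, the level and sign met the authors' fold change (within 0.15 in log2 or its size), and gene order was kept; 561 were placed and 205 were not. FGFR3 and ERBB3 each had 2 entries with whole reads, of which 1 met the level and sign.

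Limma 3.58.1 in R 4.3.3, with an intensity trend, was run on log2(FPKM + 1) and gives standard errors only. A gene entered with 1 FPKM or more in 2 or more libraries, which kept every gene. The shFTO#2 fit used all 3 groups. Only called genes were fitted, which can affect the spread it estimates. Replicates differed by more than counting noise over all genes, with chi-square per degree of freedom of 2.56 for shFTO#5 and 3.76 for shControl. Errors show how far these libraries differ, which may be technical.

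The receptor genes, the pathway lists and the markers were chosen with earlier results of these data known. Named genes were all receptor genes, up to 6 per list with the largest absolute difference, and the 3 most alike per receptor, some of which are not reported here. Positions are from GENCODE 29 on hg38, in which 1230 of 1242 identifiers were found. Alternatives were centring, quantile normalization, other pseudocounts and filters, the replicate block and leaving out each library.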

Additional observations from a re-analysis of the deposited data

How the results depend on the processing

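For 10 differences of receptor genes, none of 108 alternative values changed direction, and 23 moved by more than the spread between replicates. Most of the 108 could not change direction. Filters, the replicate block and a fit without the intensity trend leave a difference as it is. Since knockdown and shControl libraries did not overlap for these genes, another pseudocount or a left-out library cannot turn it either. Centring and quantile normalization could, and did not. With shFTO#5, centring on the median of the listed genes, which shifts all differences by −0.09, gave 0.30 for FGFR1, −0.58 for FGFR3, −0.28 for FGFR4, −0.37 for FGFRL1 and −0.84 for ERBB3. Quantile normalization gave 0.31, −0.60, −0.25, −0.37 and −0.75 for these genes and −0.58 for FGFR2. A move was counted against the replicate SD, which was 0.0065 for ERBB3 with shFTO#5. The counted move of ERBB3 from −0.754 to −0.747 was thus below its standard error of 0.057. A pseudocount of 0.1 gave −0.99 for FGFR2 and −0.81 for ERBB3. With shFTO#2, centring, a shift of −0.15, gave 0.049 for FGFR1, −1.003 for FGFR2, −0.53 for FGFR3 and −0.65 for ERBB3. Quantile normalization gave 0.065, −0.72, −0.51 and −0.60, and the pseudocount of 0.1 gave −1.14 for FGFR2 and −0.53 for ERBB3. With at least 5 FPKM required, FGFR2 gave no value.

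Leaving out 1 library at a time with shFTO#5, differences ranged from 0.36 to 0.41 for FGFR1, −0.87 to −0.64 for FGFR2, −0.57 to −0.42 for FGFR3, −0.22 to −0.17 for FGFR4, −0.33 to −0.24 for FGFRL1 and −0.76 to −0.75 for ERBB3. With shFTO#2 they ranged from 0.17 to 0.22 for FGFR1, −0.87 to −0.83 for FGFR2, −0.45 to −0.30 for FGFR3 and −0.50 to −0.49 for ERBB3. The count of 16 higher pathway genes was 16 under each alternative run.

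A replicate block cannot move a difference between balanced groups, and it was 0.39 for FGFR1 with shFTO#5 with and without it. Standard errors can move, as for FGFR3 with shFTO#2, 0.04 with the block and 0.05 without. Deviations of same-numbered libraries correlated at 0.09 (shFTO#5 and shControl), 0.22 (shFTO#2 and shControl) and 0.12 (shFTO#5 and shFTO#2). The labels do not say whether a number marks a shared batch or day. The levels of FGFR2 rest on few reads.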

Other observations

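The authors' deposited log2 change of FGFR2 was smaller than that of its FPKM. It was −0.61 for shFTO#5 and −0.68 for shFTO#2, while the log2 ratio of the mean FPKM was −1.02 and −1.18. For FGFR1 the deposited 0.42 for shFTO#5 lay beside 0.39 from the mean FPKM. For ERBB3 the deposited −0.71 for shFTO#5 lay beside −0.82. The gene length behind the FPKM equals the longest GENCODE 29 transcript for FGFR4, FGFRL1 and ERBB3 and is shorter than it for FGFR1, FGFR2 and FGFR3. The series' design text names other hairpin numbers than the sample labels, which were followed here.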
